A study of Mus musculus with 2 samples.

Results

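WNT, Notch and Hedgehog signalling were followed through 35 genes measured on bead arrays in 2 mouse samples, ES cells taken at day 0 and EB cells taken at day 4, each with a single array. The genes were those whose symbol begins with the name of a ligand, receptor, inhibitor, transducer, nuclear factor or standard target of these pathways (for example Wnt, Fzd, Sfrp, Notch, Hes, Ptch, Gli and Tle), out of 8102 genes that could be named on the array. They comprised 23 WNT genes, 6 Notch genes and 6 Hedgehog genes, carried by 40 of 46643 probes. The labels spell out neither abbreviation; in stem cell work ES stands for embryonic stem and EB for embryoid body, an aggregate in which such cells differentiate. The labels give no strain, cell line, genotype or culture condition for either sample, and state that the same samples were also sequenced, which is not analysed here. There was no replicate, so no test was possible, each difference describes these 2 arrays, and culture, array and day cannot be told apart.

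WNT ligands bind Frizzled receptors with the co-receptors Lrp5 and Lrp6, which stabilises beta-catenin and lets it act with TCF/LEF factors on their target genes; other WNT ligands, Wnt5a among them, act largely without beta-catenin on cell polarity and movement. Notch is a receptor that is cut when a neighbouring cell presents a Delta or Jagged ligand, and its freed intracellular part acts with Rbpj and Mastermind proteins on Hes and Hey genes. Hedgehog ligands relieve the block that Patched places on Smoothened, which then controls the GLI factors through Sufu. WNT activity is known both for sustaining mouse ES cells and for forming the primitive streak, and all of these pathways pattern the early embryo.

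Signals are given as quantile-normalized intensities with no background subtracted. A signal of 230.0, the level at which the EB detection score passed 0.99, is called the signal floor. Where the dimmer of both signals lay under it the ratio is a lower bound against the floor, and where both lay under it no ratio is given. A gene counted as detected at a score above 0.99 in EB or, as the ES file carries no score, at a raw signal above the ES median of 173.9, which is the looser condition. A detected gene counted as higher or lower in EB when its log2 difference, EB minus ES, reached 1 in size (2-fold). The error beside a log2 difference is the bead-level standard error, which covers the spread between beads of an array and no biological variation.

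The sample labels were set against marker genes. Of 9 named markers of undifferentiated ES cells 8 were lower in EB, with a summed signal of 43136 in ES and 4894 in EB. Both named markers of the primitive streak and mesoderm, Eomes and Lhx1, were higher, with summed signals of 444 and 3935. Of 7 fibroblast markers 5, Col1a2, Col3a1, Dcn, Postn and S100a4, did not reach the floor in either array, and the list summed to 3791 and 3961. The other 2 passed the 2-fold limit in opposite directions, Col1a1 from 2602 to 1007 and Fbln2 from 365 to 2205, which the sums do not show. Of 4 neural markers Pax6 and Ncam1 were under the floor in both (summed signals of 977 and 925), and the 2 endoderm markers Gata4 and Dab2 summed to 695 and 1171. The part of these shifts in cell makeup in the values below was not tested. In bulk RNA fewer cells of a type and less RNA per cell cannot be told apart.

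Of the 35 genes 28 were detected, 4 were higher in EB (Wnt5a, Nkd1, Smo and Tle3) and 1 was lower (Gli2). Among all 5183 detected named genes 2.78% were higher and 3.99% lower by the same rule, 6.77% in either direction. The median log2 difference was 0.00 over the 28 members and 0.00 over all detected genes, with 14 members positive and 14 negative. Of the 19 detected WNT genes 12 had a positive and 7 a negative difference, and of the 6 Hedgehog genes 1 had a positive and 5 a negative one. Over the 18 members above the floor in either array 12 differences were positive and 6 negative, with a median of 0.25. Over all named genes above it 2140 were positive and 1720 negative, with a median of 0.06. Of the 18 members 4 were above the floor in EB alone and 1 in ES alone, so the way they were picked itself adds positive differences. The 4 higher genes held a WNT ligand, a WNT feedback inhibitor, a nuclear corepressor and the Hedgehog signal transducer. Only 18 of the 35 genes exceeded the floor in either array (51.4%, against 47.7% of all named genes), and 13 exceeded it in both. A further 17 reached it in neither array, so that no ratio is given for them. Of the 5 genes over the floor in 1 array alone, Wnt5a, Wnt6, Fzd10 and Nkd1 were over it in EB and Fzd5 in ES.

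**Figure D1:**
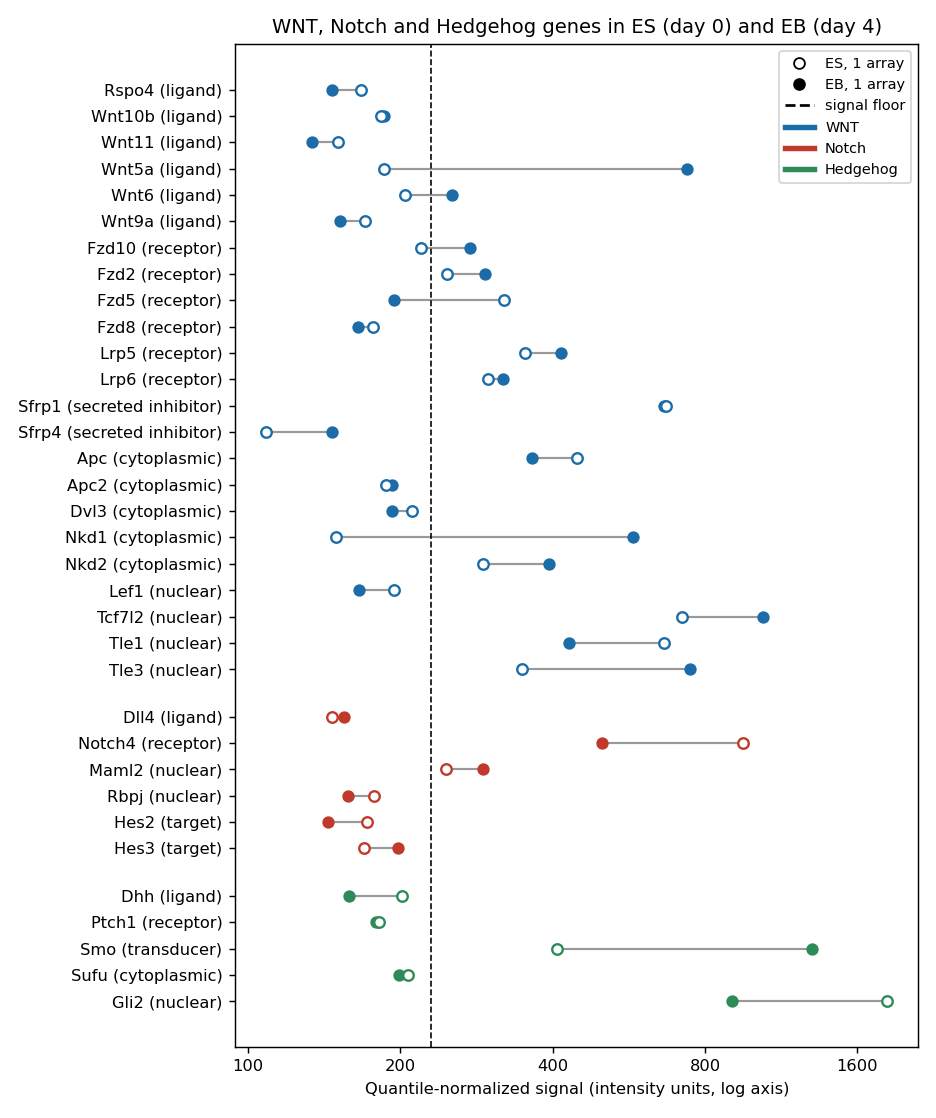
Quantile-normalized signal (log axis) of the members described in the text in ES (open circles) and EB (filled circles), 1 array each, grouped by pathway and role, with the signal floor of 230.0 as a dashed line. Wnt5a and Nkd1 cross the floor from ES to EB, Smo and Tle3 lie over it in both arrays and are higher in EB, and Gli2 and Notch4 are lower in EB.

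Sequence upstream of the start is shown for the members past the 2-fold limit in these arrays. The RefSeq promoter table (assembly GRCm38.p6) lets their start regions be read side by side. The table held 4 of these 5 genes; Wnt5a was the other. Each line gives the 250 bases before the start, 5′ to 3′ on the gene's strand: Smo at chr6:29735247-29735496 (plus strand), Nkd1 at chr8:88527383-88527632 (plus), Tle3 at chr9:61372116-61372365 (plus) and Gli2 at chr1:119053620-119053869 (minus).
Smo: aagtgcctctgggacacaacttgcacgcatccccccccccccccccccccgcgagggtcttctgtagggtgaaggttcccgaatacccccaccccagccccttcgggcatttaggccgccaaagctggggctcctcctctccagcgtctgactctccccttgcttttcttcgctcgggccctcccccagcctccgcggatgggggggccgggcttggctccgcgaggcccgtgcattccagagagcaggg
Nkd1: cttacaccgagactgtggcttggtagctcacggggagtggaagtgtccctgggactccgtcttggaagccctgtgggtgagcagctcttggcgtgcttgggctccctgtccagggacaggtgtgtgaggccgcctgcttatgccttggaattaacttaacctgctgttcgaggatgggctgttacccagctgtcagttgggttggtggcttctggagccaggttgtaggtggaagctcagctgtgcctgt
Tle3: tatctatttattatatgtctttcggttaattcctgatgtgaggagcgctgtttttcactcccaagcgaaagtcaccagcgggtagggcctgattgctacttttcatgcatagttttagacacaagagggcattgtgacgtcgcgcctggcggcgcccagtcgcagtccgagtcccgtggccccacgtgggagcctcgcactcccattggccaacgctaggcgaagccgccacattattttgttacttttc
Gli2: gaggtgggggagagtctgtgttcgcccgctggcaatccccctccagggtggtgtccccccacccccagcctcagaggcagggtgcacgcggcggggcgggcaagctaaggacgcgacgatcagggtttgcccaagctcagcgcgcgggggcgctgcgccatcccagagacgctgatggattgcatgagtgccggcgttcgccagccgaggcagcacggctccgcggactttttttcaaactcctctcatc
The windows were searched on both strands for the TCF/LEF letters (CTTTGAA or CTTTGAT or CTTTGTA or CTTTGTT), the GLI letters GACCACCCA and the RBPJ letters GTGGGAA, none of which contains another, and a match would stand in capitals. None of these letters occurred in the 4 windows, which says nothing of the factors elsewhere. The share of all 32851 windows of that length with a match was 14.8% for TCF/LEF, 0.225% for GLI and 5.42% for RBPJ. Over the 24 members whose windows were searched 5 held a TCF/LEF match (Lef1, Tcf7l2, Apc2, Maml2 and Wnt11), 1 an RBPJ match (Wnt9a) and 0 a GLI match. The GC content was 68.4% for Smo, 67.2% for Gli2, 58.4% for Nkd1 and 52.4% for Tle3, against a median of 52.4% over all windows.

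Among the WNT ligands, Wnt5a (identifier scl0022418.2_305-S), the ligand of polarity and convergent extension, read 185 in ES against 735.5 in EB. It was at background in ES and clearly above the floor in EB. The ratio was at least 3.20-fold. The measured log2 difference of 1.99 ± 0.11 (bead-level error) rests on a background signal in ES, and was 1.68 with that signal set to the floor. Wnt6 just crossed the floor, from 204 in ES to 253 in EB, at least 1.10-fold. Its log2 difference of 0.31 was 2.0 times the bead-level error. Wnt9a, Wnt10b, Wnt11 and Rspo4, the last a secreted enhancer of WNT signalling, were under the floor in both arrays. Of the 5 WNT ligands named on the array 1 was thus higher past the limit.

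Of the 6 WNT receptors none passed the 2-fold limit. Fzd5, a Frizzled receptor, read 321 in ES against 194 in EB, so that the EB signal was under the floor. It was at least 1.40-fold lower, with a measured log2 difference of -0.73 ± 0.12. Fzd2 (247 in ES, 294 in EB) and Fzd10 (219 and 274) had small differences in the other direction, 0.25 ± 0.10 and 0.32 ± 0.12. Fzd8 was under the floor in both arrays. The co-receptors were close to level. Lrp5 had signals of 352.5 and 416 (0.24 ± 0.12), and Lrp6 of 299 and 319 (0.09 ± 0.09).

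The secreted antagonist Sfrp1, which binds WNT ligands outside the cell, read 669 in ES against 662.5 in EB (-0.01 ± 0.10). It lay well over the floor in both arrays and differed by less than the bead-level error. Sfrp4 was under the floor in both. Among the cytoplasmic components Nkd1, a feedback inhibitor that binds Dishevelled (identifier scl0093960.2_71-S), went from 149 in ES to 575 in EB. The ES signal was at background and the ratio was at least 2.50-fold. The measured log2 difference of 1.95 ± 0.15 was 1.32 with the ES signal set to the floor. Its paralog Nkd2 was over the floor in both arrays, with signals of 291 and 393, 1.35-fold higher (0.43 ± 0.09). Apc, the scaffold of the complex that degrades beta-catenin, had signals of 447 and 363 (-0.30 ± 0.09). Dvl3, a Dishevelled protein, and Apc2 were under the floor in both.

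In the nucleus the Groucho-type corepressors Tle1 and Tle3, which bind TCF/LEF and Hes factors alike, differed in opposite directions. Tle3 (identifier scl021887.15_134-S) read 348 in ES against 746 in EB, 2.14-fold higher, a log2 difference of 1.10 ± 0.11 that 112 detected genes exceeded. Its second probe, with signals of 267 and 408, gave 0.61 ± 0.13, so both probes were higher but only the first passed the limit. Tle1 read 665 against 431, 1.54-fold lower (-0.62 ± 0.08). The second Tle1 probe was under the floor in both arrays. Tcf7l2, a TCF factor, had signals of 719.8 and 1041, 1.45-fold higher (0.53 ± 0.10), and its second probe was under the floor in both. Lef1 was under the floor in both arrays.

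The probes of a gene give a measure of error beyond the beads. It holds the error of both probes and, as they read the same 2 arrays, no variation between samples or arrays. In 447 genes both of 2 probes exceeded the floor in an array or more, and the gap between their log2 differences had a standard deviation of 0.39. The gap between the probes was 0.49 for Tle3 and 0.32 for Smo. It was 0.62 for Tcf7l2, more than the difference of its brighter probe, and 0.55 for Tle1, in both cases against a second probe under the floor. Of the 18 members over the floor in an array, Wnt5a, Nkd1, Smo, Tle3, Gli2, Notch4, Fzd5, Tle1, Tcf7l2 and Nkd2 had a difference beyond 0.39 by the brighter probe. That of Wnt6, Fzd2, Fzd10, Lrp5, Lrp6, Apc, Sfrp1 and Maml2 was smaller. The share of all genes beyond 0.39 was not computed, so this split does not set the members apart from other genes. The median absolute difference was 0.48 over these 18 members and 0.31 over all named genes above the floor.

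**Figure D2:**
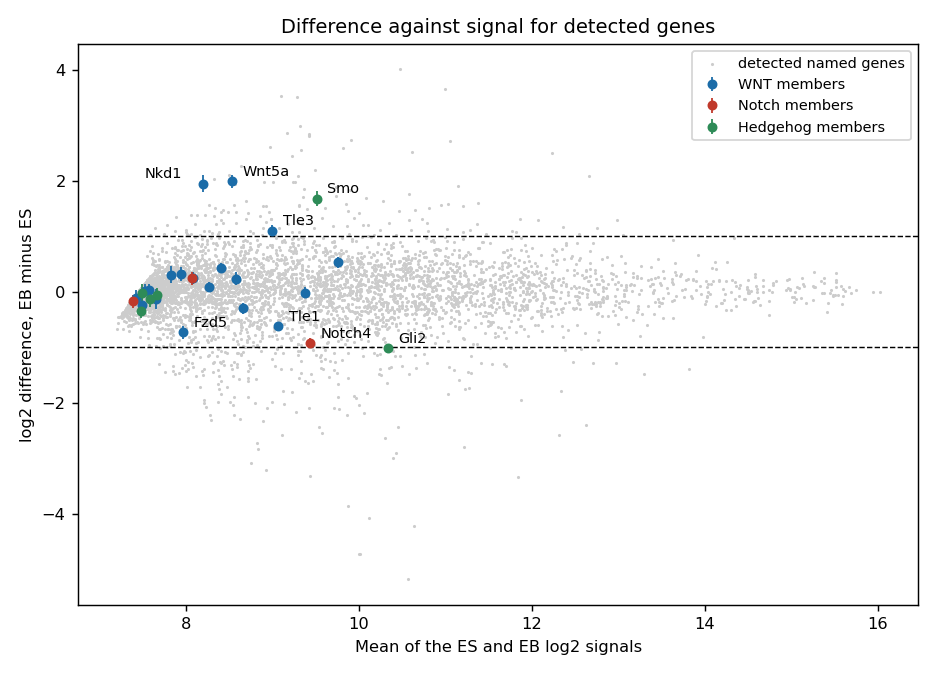
Log2 difference, EB minus ES, against the mean log2 signal for the 5183 detected named genes (grey) and the 28 detected members (colours by pathway, bars are the bead-level standard error), with dashed lines at 2-fold. Wnt5a, Nkd1, Smo and Tle3 lie above the upper line, Gli2 at -1.02 is on the lower line and Notch4 at -0.92 is just inside it.

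Of the 6 Notch genes 3 were detected and none passed the limit. At 1.5-fold, which 9.24% of all detected genes passed as higher and 9.09% as lower (18.3% in either direction), 4 of the 28 detected members were higher and 4 lower, and Notch4 was among the lower ones with Gli2, Fzd5 and Tle1. Notch4, a Notch receptor known from endothelium, read 949 in ES against 500.0 in EB. It was 1.90-fold lower (-0.92 ± 0.09), and 232 detected genes had a more negative difference. Maml2, a Mastermind coactivator, was just over the floor in both arrays, with signals of 246 and 291 (0.24 ± 0.12). Rbpj, the DNA-binding partner of cut Notch, was under the floor with both of its probes, as were the ligand Dll4 and the Hes factors Hes2 and Hes3. The Notch readout here therefore rests on 1 receptor and 1 coactivator.

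The 6 Hedgehog genes were all detected, but only Smo and Gli2 exceeded the floor, and these differed in opposite directions. Smo, the membrane protein Smoothened that passes the Hedgehog signal on (identifier scl0319757.3_203-S), read 407 in ES against 1304 in EB. It was 3.20-fold higher (1.68 ± 0.13), a difference that 38 detected genes exceeded. On the second probe it read 188 in ES, under the floor, and 484 in EB, which gave 1.36 ± 0.14, so both probes passed the limit. Gli2, the main activating GLI factor (identifier scl014633.1_81-S), read 1834 in ES against 906 in EB. It was 2.03-fold lower (-1.02 ± 0.08), and 203 detected genes had a more negative one. Gli2 lay at the limit: from unnormalized signals its difference was -0.99 and after median scaling -0.98, so that it no longer counted as lower. The ligand Dhh, the receptor Ptch1, which is also a Hedgehog target, and the inhibitor Sufu were under the floor in both arrays. Their measured log2 differences ran from -0.35 for Dhh to -0.02 for Ptch1.

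Other genes of the 3 pathways were taken from lists of 155 genes, of which 73 were named on the array and 58 detected. Of these 2 were higher and 3 lower, against the background of 6.77% in either direction, and their median log2 difference was 0.02. Among 20 detected WNT components outside the members 1 was higher and 0 were lower. This was Wls, the transporter that carries WNT ligands to the cell surface, which read 401.5 in ES against 1130 in EB. It was 2.81-fold higher (1.49 ± 0.09), in the same direction as the ligand Wnt5a. Prickle1, a planar cell polarity protein, had signals of 1508 and 2543, 1.69-fold higher (0.75 ± 0.08), while Vangl2 of the same branch gave -0.02 ± 0.08. Other genes of that branch had small differences in both directions. Vangl1 gave -0.38 ± 0.13 and Celsr2 -0.37 ± 0.13, the latter with an EB signal under the floor. Celsr1 gave 0.28 ± 0.11 and Celsr3 0.01 ± 0.11. Crebbp, a histone acetyltransferase and coactivator, was under the floor in ES and at 290 in EB (at least 1.26-fold higher), with a second probe under the floor in both. Ruvbl1, an ATPase that binds beta-catenin, gave 0.43 ± 0.09 with one probe and 0.04 ± 0.07 with the other, both far over the floor, so its probes disagreed.

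Of the list of WNT-linked targets 4 of 5 named genes were detected and 1 was lower. Klf4, a pluripotency factor that also stands among the ES markers, was at least 5.87-fold lower. Its other 2 probes gave log2 differences of -2.50 and -1.67. Ccnd1, cyclin D1, read 4528 in ES against 7065 in EB, 1.56-fold higher, and its 3 probes gave 0.64, 0.62 and 0.52. Ephb2, an ephrin receptor, had signals of 235 and 394.5 (0.75 ± 0.15), with a second probe under the floor in both arrays. Axin2, Dkk1, Lgr5, Ctnnb1, Notch1, Dll1, Hes1, Gli1 and Shh had no named probe and were not analysed here.

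Of 26 detected Notch components outside the members 0 were higher and 2 were lower. Dtx3l, a ubiquitin ligase of the Deltex family, read 1118 in ES against 508.5 in EB, 2.20-fold lower (-1.14 ± 0.08). Kat2b, a histone acetyltransferase, was at least 1.74-fold lower. The next probe measured -0.87, with an EB signal under the floor, and the remaining one was under the floor in both arrays. Under the limit were Ncor1, a nuclear corepressor (signals of 2596 and 1370, -0.92 ± 0.08), Dlk1, a secreted and membrane-bound Delta-like protein (616 and 1148, 0.90 ± 0.09), and Mib1, the ubiquitin ligase that activates Notch ligands (331 and 475, 0.52 ± 0.08). Of the gamma-secretase complex that cuts Notch, the subunit Ncstn gave 0.12 ± 0.10 and the subunit Psenen 0.18 ± 0.09.

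Of 11 detected Hedgehog components outside the members 1 was higher and 0 were lower. Iqce, a protein of the cilium in which Smoothened acts, read 350.4 in ES against 740.3 in EB, 2.11-fold higher (1.08 ± 0.08). Evc, which acts with Smoothened at the base of the cilium, had signals of 482 and 327 (-0.56 ± 0.14), and its second probe was under the floor in both. Arrb1, a beta-arrestin, gave 0.43 ± 0.12 with an ES signal under the floor, and its second probe was under the floor in both arrays. Kif3a, a motor subunit needed to build cilia, gave 0.40 ± 0.09 and 0.39 ± 0.08 with its 2 probes. The ligand antagonist Hhip and the co-receptor Cdon were under the floor in both arrays.

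**Figure D3:**
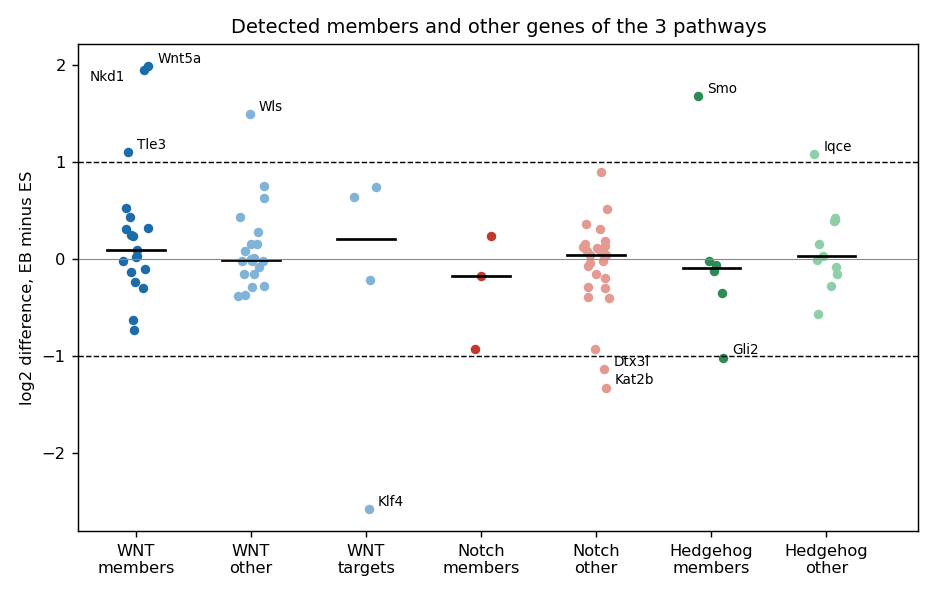
Log2 difference, EB minus ES, of detected members and of detected other genes of each pathway (1 point per gene, black bars are medians, dashed lines are at 2-fold). Medians lie between -0.17 for the Notch members and 0.21 for the WNT targets, and the labelled genes are those past 2-fold.

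The values were recomputed in other ways of processing the arrays. Wnt5a ranged from 1.68, with signals under the floor set to it, to 4.74 from the series value table, and Nkd1 from 1.32 to 5.12 in the same order; the ES signals of both lie under the floor, where these settings act. Smo ranged from 1.52 as the mean of its probes to 2.32 and passed the limit under all 9 settings, the main one included. Tle3 passed under 8 of 9, the exception being the mean of its probes (0.86). The settings by floor or detection could not change Smo or Tle3, whose main probes lay over the floor in both arrays. Notch4 passed under 2 of 9, with normexp background correction and in the series value table, where its difference was -1.27. Fzd5 reached -2.50 in that table and -0.48 with signals set to the floor. The sign was the same under all settings for each of these 6 genes and for Gli2 and Tle1.

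**Figure D4:**
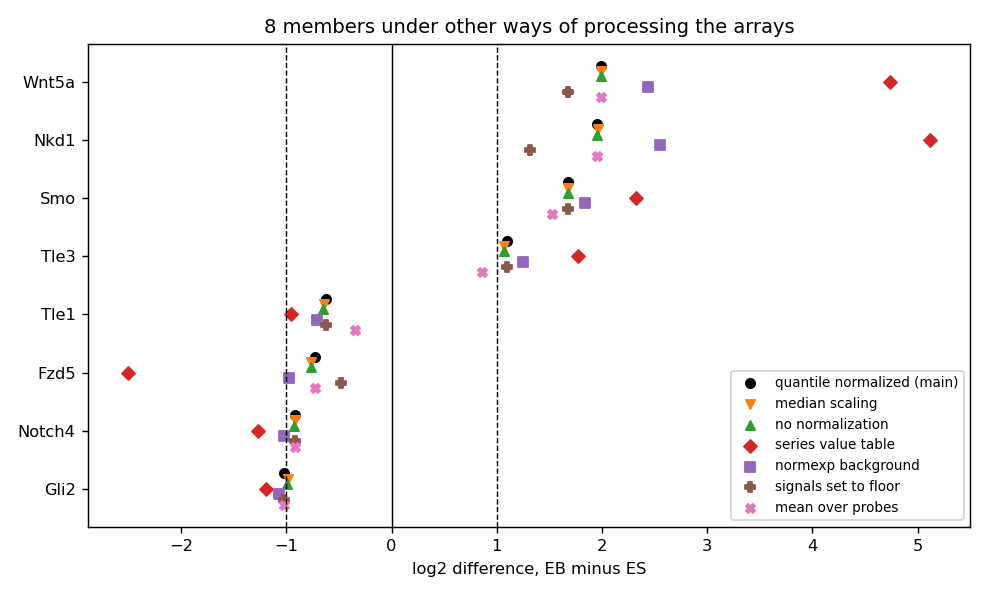
Log2 difference, EB minus ES, of the 8 detected members past 1.5-fold, under the main processing (black) and 6 other ways of processing (colours and shapes), with dashed lines at 2-fold. Each gene stays on 1 side of 0, and the values from the series value table lie farthest out.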

How the data were processed

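Each sample was hybridised to 1 array, and both arrays lay on 1 Illumina mouse bead chip, per the file headers. The deposited signal intensity of a probe is the mean over its beads (18 to 52 for the members' main probes), exported without normalization from BeadStudio 2.3.41, per the file headers. RMA, limma and BeadStudio 2 stand in the submitters' processing notes with no role. The sample titles call the data normalised, against what these headers state. The deposited bead spread fell with the number of beads (slopes of -0.44 and -0.47 on log scales) and was read as a standard error. Only the EB file has a deposited detection score. The deposited series value table holds linear intensity with medians of 16.7 in both arrays; the sources do not say how the authors made it, and it was used as an alternative only. No genome build is named for the array.

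Both arrays were quantile normalized together and log2-transformed (numpy 2.4.6, pandas 2.3.3), without background subtraction; normexp with an offset of 50 (limma 3.58.1, R 4.3.3) was an alternative. The calling step was tested on simulated data with bead noise alone, in which only bright probes were changed, by more than 2-fold. That test does not cover calls from dim signals or at the limit. Target identifiers with a zero-padded number of 10000 or more were taken as NCBI Gene numbers, which matched RefSeq symbols for 9796 of 11857 probes (82.6%). The probe with the highest mean log2 signal stood for a gene; 5 members had 2 probes. The text gives in full the members past 2-fold, then those past 1.5-fold, the rest by role, and of the other lists the genes past 2-fold and up to 3 more with the largest differences, besides a few genes chosen for their role after their values were seen. The members and lists were chosen with earlier results of these data known. Some single-gene values are not reported here. The number of arrays limits the precision.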

Additional observations from a re-analysis of the deposited data

How the results depend on the processing

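No paired analysis was possible because neither group has a second sample; leaving 1 out was likewise not possible. Against 4 members higher and 1 lower, median scaling and unnormalized signals left 0 lower and 1 Hedgehog gene past the limit, because Gli2 stands at it. The lower count was 4 in the series value table (Gli2, Notch4, Fzd5 and Dhh) and 2 with normexp background correction (Gli2 and Notch4). The table gave 6 WNT and 1 Notch gene past the limit and 14 other pathway genes; its low end is stretched, and 21.6% of all detected genes passed there. Normexp gave 1 Notch gene. With signals over the floor in both samples 13 members were left, 2 were higher and 1 WNT gene passed, since Wnt5a and Nkd1 drop out by construction; the members' median was 0.24 (0.06 over all genes so filtered) and 3 other pathway genes passed. A 1.5-fold limit gave 4 members lower, 5 WNT genes, 1 Notch gene and 11 other pathway genes, where 18.3% of all detected genes passed. The mean over probes, signals set to the floor and no detection filter left each of these counts within 1.5 times. No called member changed sign. The differences of the 17 members under the floor in both arrays rest on background signal.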
